A study of Rattus norvegicus with 6 samples.

Results

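Il1a, Il1b, Il1rn, Il18, Il33, Il1r1, Il1r2, Il1rap, Il1rl1 and Il18r1, the main ligands, inhibitor and receptors of the interleukin-1 (IL-1) family, were examined in the lungs of pulmonary fibrosis (PF) model rats and control rats. Every transcript row that carried 1 of these 10 gene names was taken, which gave 42 of the 70376 transcripts in the linear RNA data. Of the 42, 17 were annotated in Ensembl (identifiers starting with ENSRNOT) and 25 were isoforms assembled from the reads (identifiers starting with MSTRG). Sprague–Dawley rats aged 7 weeks received either a single dose of bleomycin at 7 mg/kg into the trachea (model, n = 3) or an equal volume of saline (control, n = 3), and lung specimens were taken on day 28. No genotype was altered in either group. One rRNA-depleted library was made per rat, and the libraries are named control 1 to 3 and model 1 to 3.

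IL-1 family cytokines start inflammation. IL-1α (Il1a) is stored in epithelial and other cells and released on damage, IL-1β (Il1b) and IL-18 (Il18) are made as precursors that the inflammasome protease caspase-1 cleaves, and IL-33 (Il33) is a nuclear alarmin of the lung epithelium that acts on type 2 immune cells. IL-1α and IL-1β signal through IL-1R1 (Il1r1) paired with the accessory chain IL-1RAP (Il1rap), whereas the IL-1 receptor antagonist (Il1rn) and the decoy receptor IL-1R2 (Il1r2) hold this signal back. IL-33 is sensed by ST2 (Il1rl1), whose gene yields a membrane receptor and a shorter soluble decoy, and IL-18 by IL-18R1 (Il18r1).

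The genes lie in a few clusters. On the coordinates of the deposited tables, whose build is not named, Il1a (chr3:121825412-121837280) and Il1b (chr3:121876263-121882726) share the minus strand of chromosome 3, with a gap of 38983 bases between them, and Il1rn lies on the same chromosome at chr3:1452644-1468614. Il1r2, Il1r1, Il1rl1 and Il18r1 follow each other on the plus strand of chromosome 9 within 378184 bases, and only 2758 bases separate Il1rl1 (chr9:47134034-47182685) from Il18r1 (chr9:47185443-47219175). Il33 lies at chr1:248111916-248153604, Il18 at chr8:54990196-55016299 and Il1rap at chr11:77463954-77593207.

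Because the isoform differences described below involve transcript starts, the 250 bases before the RefSeq starts of Il1a, Il1rl1 and Il33 are shown (GRCr8 build, 5′ to 3′ on the gene's strand). The windows were not matched to single isoforms of the deposited tables. The capitals mark a TATA box (TATAAA) or an AP-1 motif (TGANTCA), searched on both strands. RefSeq windows were found for 9 of the 10 genes (11 windows in all), and none was found for Il1r2.
Il1a, chr3:136990018-136990267, minus strand: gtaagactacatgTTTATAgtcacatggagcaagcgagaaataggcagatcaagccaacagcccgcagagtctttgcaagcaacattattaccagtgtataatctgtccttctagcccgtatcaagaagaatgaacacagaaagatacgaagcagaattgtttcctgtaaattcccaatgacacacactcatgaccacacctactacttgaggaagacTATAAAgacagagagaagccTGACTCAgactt
Il1rl1, chr9:50203388-50203637, plus strand: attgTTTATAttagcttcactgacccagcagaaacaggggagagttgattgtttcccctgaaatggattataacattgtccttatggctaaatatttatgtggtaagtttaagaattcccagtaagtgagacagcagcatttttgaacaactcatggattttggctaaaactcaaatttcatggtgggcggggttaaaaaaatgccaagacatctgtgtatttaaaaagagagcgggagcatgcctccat
Il33, upstream start, chr1:237115323-237115572, plus strand: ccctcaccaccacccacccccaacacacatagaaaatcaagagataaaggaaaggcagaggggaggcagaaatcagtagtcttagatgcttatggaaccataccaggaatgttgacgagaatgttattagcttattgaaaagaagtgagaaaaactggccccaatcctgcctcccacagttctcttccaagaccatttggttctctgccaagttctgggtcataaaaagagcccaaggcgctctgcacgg
Il33, downstream start, chr1:237134696-237134945, plus strand: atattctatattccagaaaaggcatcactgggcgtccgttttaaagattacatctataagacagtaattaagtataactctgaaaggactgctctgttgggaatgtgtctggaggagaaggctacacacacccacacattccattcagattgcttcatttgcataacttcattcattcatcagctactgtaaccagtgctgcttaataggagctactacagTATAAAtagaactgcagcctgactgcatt

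A TATAAA on the coding strand began 32 bases before the Il1a start and 29 bases before the downstream Il33 start. The upstream Il33 window held no TATAAA, and the 2 Il33 starts lay 19373 bases apart. An AP-1 motif, which reads the same pattern on either strand, was found 12 bases before the Il1a start and in no other member window. TATAAA on either strand was present in 5 of the 11 member windows and in 12.9% of the 33469 windows of all genes, TGANTCA in 1 and in 6.34%, and the NF-kB pattern GGGNNNNNCC, which was in none of the 4 windows shown, in 5 and in 42.3%. No motif matches overlapped in the windows shown, apart from the TGANTCA match read on both strands. The Il1rl1 window started 19853 bases before that of Il18r1.

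For a level per gene, the FPKM (fragments per kilobase of transcript, scaled to the mapped fragments of the library) of all transcripts of a gene in the same assembled locus were summed, and this sum is called the locus FPKM. A feature was called when limma's unadjusted p was at most 0.05 and the log2 ratio of the group means was at least 1 in size. These are the thresholds used by the study, but its methods name Ballgown and DESeq rather than limma. Fold changes are given on the log2(FPKM + 1) scale, which understates the change of low genes. At this level no member was called: 0 of 10 passed, against 1.73% of all 20421 genes tested. None of the 10 passed an adjusted p of 0.05 (limma with Benjamini-Hochberg adjustment), which 0.00979% of all genes did, none had an unadjusted p under 0.05, and in none were the 3 model lungs all above or all below the 3 control lungs, which was so for 10.2% of all genes. Locus log2 fold changes ran from -0.47 (Il1a) to 0.24 (Il33), 3 positive and 7 negative, with a median of -0.13 beside -0.0020 over all genes, and the unadjusted p lay between 0.111 and 0.952. In RNA from unsorted lung tissue, fewer cells of a type and less RNA per cell cannot be told apart.

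**Figure D1:**
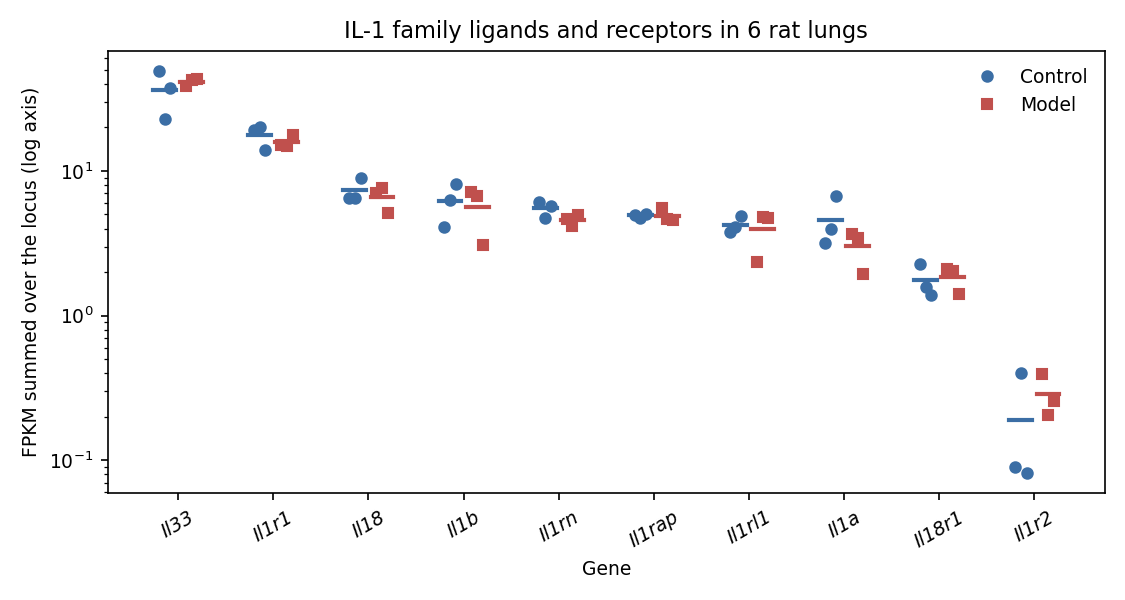
Locus FPKM of the 10 genes on a log axis, with 1 point per rat lung (circles, control; squares, model) and a bar at each group's mean (n = 3). The points of the groups overlap for each of the 10 genes, and Il33 and Il1r1 stand above the rest.

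Of the alarmin ligands, Il33 was the most abundant member. Control lungs held 49.1, 23.0 and 37.4 FPKM of Il33 and model lungs 38.7, 42.3 and 43.3 FPKM. Control 2 was the lowest lung and control 1 the highest, so the model values fell inside the control range. The log2 fold change of Il33 was 0.24 (SE 0.26, unadjusted p = 0.380, adjusted p = 0.957 in limma with Benjamini-Hochberg adjustment), and without control 2 it was -0.049. Il1a, the other alarmin, was at 3.20, 3.95 and 6.70 FPKM in control lungs and at 3.65, 3.43 and 1.94 FPKM in model lungs. Control 3 was the highest and model 3 the lowest, and the other 4 lungs lay close together, for a log2 fold change of -0.47 (SE 0.28, unadjusted p = 0.144, adjusted p = 0.957 in limma with Benjamini-Hochberg adjustment). The study counted IL-1a among its differentially expressed mRNAs and reported that its own sequencing and qRT-PCR had a similar pattern. Its text does not give the direction for IL-1a, so it cannot be set beside the fold change here.

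The inflammasome substrates Il1b and Il18 showed the same extreme lungs. Il1b was at 4.09, 6.32 and 8.17 FPKM in control and 7.18, 6.76 and 3.06 FPKM in model lungs (log2 fold change -0.14, SE 0.33). Il18 was at 6.54, 6.46 and 8.98 FPKM in control and 7.04, 7.63 and 5.10 FPKM in model lungs (log2 fold change -0.14, SE 0.18). Control 3 was thus the highest lung and model 3 the lowest for Il1a, Il1b and Il18 alike. The log2 fold change of Il1b was 0.19 without model 3 and 0.060 without control 3, and that of Il18 was 0.014 and 0.0013.

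Il1rn, which encodes the receptor antagonist, was at 6.10, 4.76 and 5.75 FPKM in control and 4.69, 4.15 and 4.93 FPKM in model lungs. Model 1 and model 2 were below every control lung, and model 3 was above control 2. Il1rn had the smallest unadjusted p of the 10 genes (log2 fold change -0.22, SE 0.12, unadjusted p = 0.111, adjusted p = 0.957 in limma with Benjamini-Hochberg adjustment). The balance of antagonist to agonists, as log2 of Il1rn over the sum of Il1a and Il1b, was -0.26, -1.11 and -1.37 in control and -1.21, -1.29 and -0.021 in model lungs. The groups overlapped widely and their means differed by 0.071 (two-sided exact permutation test, p = 0.8, with 0.1 the smallest p that 3 against 3 allows).

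Among the receptors, Il1r1 was the highest, at 19.1, 20.0 and 14.0 FPKM in control and 15.0, 15.0 and 17.6 FPKM in model lungs (log2 fold change -0.14, SE 0.15). The accessory chain Il1rap was at 4.99, 4.70 and 5.07 FPKM in control lungs, which were close to each other, and at 5.51, 4.63 and 4.58 FPKM in model lungs (log2 fold change -0.0066, SE 0.10). Il1rl1 was at 3.78, 4.10 and 4.88 FPKM in control and 2.36, 4.78 and 4.76 FPKM in model lungs (log2 fold change -0.12, SE 0.23). Model 1 alone was below the control range of Il1rl1, and without model 1 the log2 fold change was 0.14. Il18r1 was at 2.26, 1.59 and 1.40 FPKM in control and 2.09, 2.02 and 1.41 FPKM in model lungs (log2 fold change 0.051, SE 0.17), again with overlapping groups.

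The decoy receptor Il1r2 was near the limit of detection. It was at 0.0903, 0.400 and 0.0818 FPKM in control and 0.394, 0.205 and 0.257 FPKM in model lungs, which rested on an estimated 6.0, 24.5 and 5.7 reads and 27.5, 13.0 and 17.0 reads respectively. Control 2 was the highest lung, and without it Il1r2 was called higher in the model (log2 fold change 0.24, unadjusted p = 0.0306, adjusted p = 0.965 in limma with Benjamini-Hochberg adjustment), the only member called at the locus level when 1 library was left out. Of all genes, 1.9% were called without control 2. The log2 ratio of decoy to signaling receptor, Il1r2 over Il1r1, was higher by 1.02 in the model (two-sided exact permutation p = 0.3). This difference was 2.77 over annotated transcripts alone, 1.62 without control 2 and 0.64 without control 1. Annotated transcripts of Il1r1 held only 0.475 and 1.065 FPKM in model 1 and model 2. Assembled isoforms, which the value of 2.77 leaves out, made up 96.8% and 92.9% of its locus FPKM there.

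By mean locus FPKM over the 6 lungs, the order was Il33 (39.0), Il1r1 (16.8), Il18 (6.96), Il1b (5.93), Il1rn (5.06), Il1rap (4.91), Il1rl1 (4.11), Il1a (3.81), Il18r1 (1.80) and Il1r2 (0.238). Neighbors in this order had ranges that did not overlap between Il33 and Il1r1, Il1r1 and Il18, and Il18r1 and Il1r2, and all other neighbors overlapped.

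Log2 fold changes ran wider for the isoforms behind these sums, from -1.6 to 1.3 for annotated and from -1.94 to 0.64 for assembled transcripts. Over all features, transcripts were also called more often than genes (1.73% of genes), but the spread of fold changes over all features was not compared. Of the 17 annotated transcripts, 16 could be tested and 3 were called (2 higher and 1 lower in the model), against 3.25% of the 25073 annotated transcripts tested. For 2 of the 16 the groups did not overlap, 1 in each direction, against 9.9% of all annotated transcripts. Of the 25 assembled transcripts, 24 could be tested and 1 was called, lower in the model, against 2.98% of 39794, and for 2, both lower, the groups did not overlap, against 10.7%. No member transcript passed an adjusted p of 0.05 (limma with Benjamini-Hochberg adjustment), as 0.0199% of the annotated and 0.0276% of the assembled transcripts did.

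The call among the assembled transcripts was an Il1a isoform, MSTRG.23933.3 (7 exons, 1794 bases, chr3:121825835-121837280). It had 2.40, 3.22 and 3.12 FPKM in control lungs and 0, 0 and 0.0384 FPKM in model lungs. Every control lung thus had this isoform and model lungs all but lacked it, with an estimated 200.0, 246.3 and 273.5 reads against 0, 0 and 3.2. The log2 fold change was -1.94 (SE 0.16, unadjusted p = 1.87e-05, adjusted p = 0.0619, limma with Benjamini-Hochberg adjustment), and it was called under every alternative run on it. This isoform started 1194 bases upstream of the longest annotated Il1a transcript. Isoforms of a locus share exons and the reads were divided between them by the authors' estimate, so their values are not independent of each other.

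The annotated Il1a transcript with as many exons, ENSRNOT00000006113 (7 exons, 1252 bases), ran the other way. It had 0.162, 0.195 and 0.959 FPKM in control and 1.79, 0.784 and 1.91 FPKM in model lungs, and control 3 lay above model 2. It was called higher (log2 fold change 0.80, SE 0.30, unadjusted p = 0.0401, adjusted p = 0.967, limma with Benjamini-Hochberg adjustment), and this call was lost when control 1, control 2, model 1 or model 3 was left out, with unadjusted p from 0.104 to 0.118. A shorter annotated transcript, ENSRNOT00000006126 (633 bases), was at 0.509, 0.442 and 2.62 FPKM in control and 1.87, 2.65 and 0 FPKM in model lungs. It varied as much within groups as between them, and the fourth, ENSRNOT00000080818, was above 0 in control 1 and control 2 alone, at 0.125 and 0.0884 FPKM, too few lungs to test.

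As a share of the Il1a locus FPKM, the assembled isoform made up 75.2%, 81.6% and 46.6% in control lungs and 0%, 0% and 1.97% in model lungs. Whether this isoform was counted therefore set the direction of Il1a. The fold change was negative in each way of adding that kept it, and how the isoforms were added set its size. FPKM divides by transcript length, and the isoform that was nearly absent from model lungs was the longest. Estimated reads over the whole locus were 229.0, 271.6 and 413.2 in control and 165.8, 116.9 and 112.9 in model lungs, so that by reads the groups did not overlap. Il1a was called lower when transcripts were weighted by length (log2 fold change -0.59, unadjusted p = 0.00469, adjusted p = 0.949 in limma with Benjamini-Hochberg adjustment). The same held for the fragments of the locus scaled to the library total, an alternative chosen after seeing the data (log2 fold change -0.96, unadjusted p = 0.00350, adjusted p = 0.926 in limma with Benjamini-Hochberg adjustment). Over annotated transcripts alone, the log2 fold change of Il1a was 0.69 (unadjusted p = 0.163, adjusted p = 0.974 in limma with Benjamini-Hochberg adjustment).

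**Figure D2:**
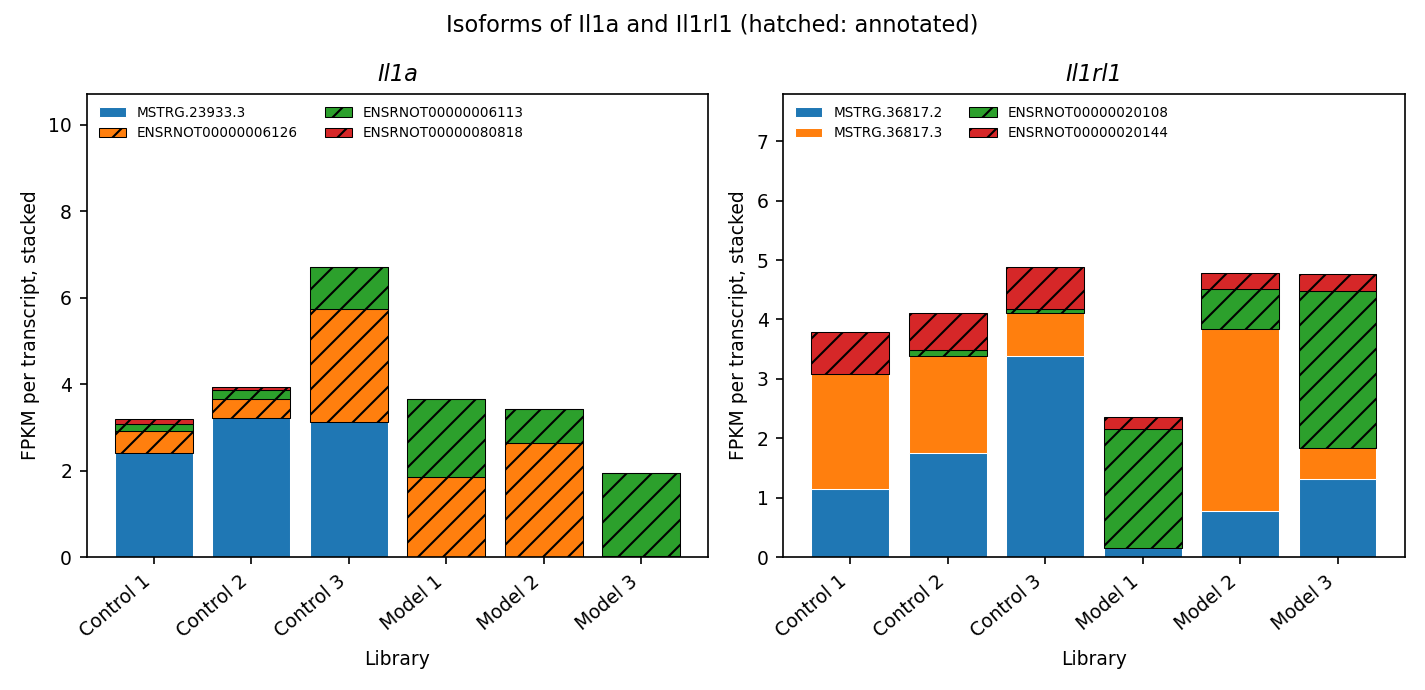
FPKM of each isoform of Il1a (left) and Il1rl1 (right), stacked for each of the 6 lungs, with annotated transcripts hatched. The assembled Il1a isoform fills 46.6% to 81.6% of each control bar and at most 1.97% of a model bar, and the long annotated Il1rl1 isoform is at most 0.0946 FPKM in control lungs and at least 0.666 FPKM in model lungs.

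Il1rl1 had 2 annotated transcripts, and they moved in opposite directions. The longer in exons, ENSRNOT00000020108 (11 exons, 2065 bases, chr9:47134034-47182170), had 0, 0.0946 and 0.0782 FPKM in control and 2.01, 0.666 and 2.64 FPKM in model lungs. All model lungs were above all control lungs (log2 fold change 1.32, SE 0.31, unadjusted p = 0.00555, adjusted p = 0.832, limma with Benjamini-Hochberg adjustment). The shorter, ENSRNOT00000020144 (8 exons, 2585 bases, chr9:47165342-47174710), had 0.700, 0.625 and 0.691 FPKM in control and 0.199, 0.273 and 0.285 FPKM in model lungs. All model lungs were below all control lungs, and values within each group were close (log2 fold change -0.42, SE 0.08, unadjusted p = 0.00298, adjusted p = 0.658, limma with Benjamini-Hochberg adjustment). Both calls held whichever library was left out, but both were lost when a mean of at least 1 FPKM was required, and that of ENSRNOT00000020108 also in an F test with a library size covariate (log2 fold change 1.43).

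The short transcript began 31308 bases downstream of the long one and ended 7460 bases before it, and the soluble form of ST2 is known to end before the membrane form, but no protein sequence was used here to tell the forms apart. The start of the short transcript was 20101 bases before that of Il18r1 in the tables, near the distance that separated the RefSeq windows of Il1rl1 and Il18r1. By this distance the Il1rl1 window shown lay nearer the start of the short transcript than that of the long one, for which no window is shown. Estimated reads behind the short transcript were 83.9, 68.8 and 87.2 in control and 25.0, 31.1 and 33.9 in model lungs.

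In the control lungs and model 2, most Il1rl1 signal came from 2 assembled isoforms, which started 20484 bases downstream of the long annotated one and reached its far 3′ end or beyond. MSTRG.36817.3 had 1.93, 1.63 and 0.719 FPKM in control and 0, 3.07 and 0.516 FPKM in model lungs. MSTRG.36817.2 had 1.15, 1.75 and 3.39 FPKM in control and 0.150, 0.775 and 1.32 FPKM in model lungs (log2 fold change -0.82, unadjusted p = 0.0689, adjusted p = 0.929 in limma with Benjamini-Hochberg adjustment). Neither was called, and the groups overlapped for both. Added together, the 3 isoforms that reach the far 3′ end had 3.08, 3.48 and 4.18 FPKM in control and 2.16, 4.51 and 4.48 FPKM in model lungs, and the groups overlapped, with model 1 below and the other model lungs above the control lungs. Over annotated transcripts alone, Il1rl1 was called higher (log2 fold change 0.75, unadjusted p = 0.0366, adjusted p = 0.974 in limma with Benjamini-Hochberg adjustment).

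Il1r1 had the most transcripts, 4 annotated and 8 assembled, and its 2 leading isoforms alternated between lungs. ENSRNOT00000082146 had 8.54, 9.66 and 1.87 FPKM in control and 0, 0 and 9.35 FPKM in model lungs. MSTRG.36805.2 had 3.56, 3.96 and 6.02 FPKM in control and 12.1, 9.39 and 3.05 FPKM in model lungs. Where the annotated isoform was high the assembled one was low, within groups as well as between them, and their sum was 12.1, 13.6 and 7.88 FPKM in control and 12.1, 9.39 and 12.4 FPKM in model lungs. Neither was called (adjusted p = 0.967 and 0.929 in limma with Benjamini-Hochberg adjustment). MSTRG.36805.4, of 11124 bases, was at 3.82, 1.03 and 0.9999 FPKM in control and 0.639, 0.915 and 0.576 FPKM in model lungs. It was lower in every model lung than in every control lung, with control 1 far above all other lungs, and was not called (adjusted p = 0.929 in limma with Benjamini-Hochberg adjustment). Control 1 was also the lung in which an overlapping intronic transcript, MSTRG.36808.1, was at 0.

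Of the remaining Il1r1 transcripts of the locus, ENSRNOT00000019673, ENSRNOT00000082408 and ENSRNOT00000087112 were each under 1 FPKM in every lung, and MSTRG.36805.3 and MSTRG.36805.8 averaged 1.55 and 1.80 FPKM over the 6 lungs with overlapping groups. A further 4 transcripts carried the name Il1r1 but lay in its introns or on the opposite strand, outside the locus sum. Together they held 14.3, 20.7 and 20.1 FPKM in control and 17.4, 19.2 and 18.7 FPKM in model lungs, as much as the gene itself. MSTRG.36806.1, an intronic transcript of 277 bases, was the highest of them, at a mean of 9.05 FPKM, and MSTRG.36808.1 was at 0 in control 1 and between 3.14 and 4.26 FPKM in the other 5 lungs. MSTRG.36808.1, on the minus strand, and MSTRG.36805.4, on the plus strand, overlap and share their lowest coordinate, chr9:46987035. In control 1 they had an estimated 0 and 1970 reads, against 1046 to 1507 and 294.6 to 543.4 reads in the other 5 lungs. Whether reads were divided differently between them in control 1 was not tested.

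**Figure D3:**
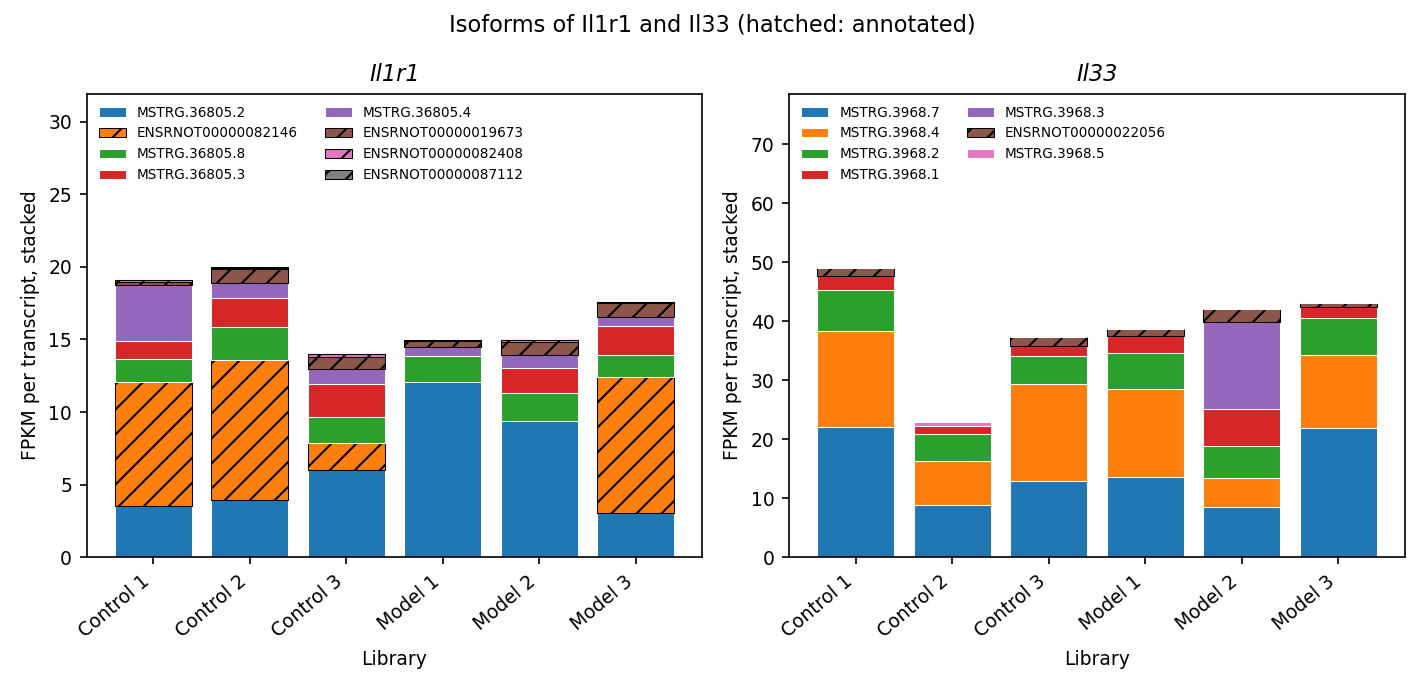
FPKM of each isoform of Il1r1 (left) and Il33 (right), stacked for each of the 6 lungs, with annotated transcripts hatched. The annotated Il1r1 isoform ENSRNOT00000082146 is at 0 in model 1 and model 2 and at 9.35 FPKM in model 3, and the Il33 isoform MSTRG.3968.3 is present in model 2 alone, at 14.7 FPKM.

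Il33 was carried by assembled isoforms in all lungs, at 94.5% to 100% of its locus FPKM, while the annotated ENSRNOT00000022056 reached at most 2.31 FPKM. The largest were MSTRG.3968.7 (22.1, 8.86 and 12.9 FPKM in control and 13.5, 8.52 and 21.9 FPKM in model lungs) and MSTRG.3968.4 (16.4, 7.42 and 16.5 FPKM in control and 15.0, 4.92 and 12.3 FPKM in model lungs). Both were lower in model 2 than in model 1 and model 3. MSTRG.3968.3 was listed at 0 in 5 lungs and at 14.7 FPKM in model 2, where it made up 34.8% of the locus, and it could not be tested. Isoforms from the upstream start, 20174 bases before the annotated one, summed to 9.29, 6.02 and 6.34 FPKM in control and 8.95, 26.4 and 8.24 FPKM in model lungs, and those from the other starts to 39.8, 16.9 and 31.0 FPKM in control and 29.8, 15.9 and 35.1 FPKM in model lungs. Apart from model 2, the upstream sums of the model lungs lay in the control range. No tested Il33 isoform was called.

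For Il1b, the annotated ENSRNOT00000006308 was at 2.40, 3.73 and 4.44 FPKM in control and 4.88, 3.69 and 2.34 FPKM in model lungs (log2 fold change 0.027). MSTRG.23934.2, a single-exon transcript overlapping an exon and an intron of Il1b, made up 23.4% to 45.7% of the locus FPKM. An intronic transcript named Il1b, MSTRG.23935.1, was outside the sum at 1.45 to 7.18 FPKM. For Il18, the annotated ENSRNOT00000013093 was at 3.54, 1.94 and 4.84 FPKM in control and 3.66, 2.98 and 1.50 FPKM in model lungs, and assembled isoforms held 45.9% to 70.5% of the locus. None of the Il1b or Il18 transcripts was called, and their groups overlapped.

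Il1rn, Il1r2, Il1rap and Il18r1 had no assembled isoform in their sums, and for Il1rn and Il18r1 a single annotated transcript made up the gene. Il1rap was carried by ENSRNOT00000002645, at a mean of 4.76 FPKM, and ENSRNOT00000043498 was at 0.155 FPKM. These 4 genes therefore gave the same fold change whether or not assembled isoforms were counted, as the plot by way of combining shows.

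**Figure D4:**
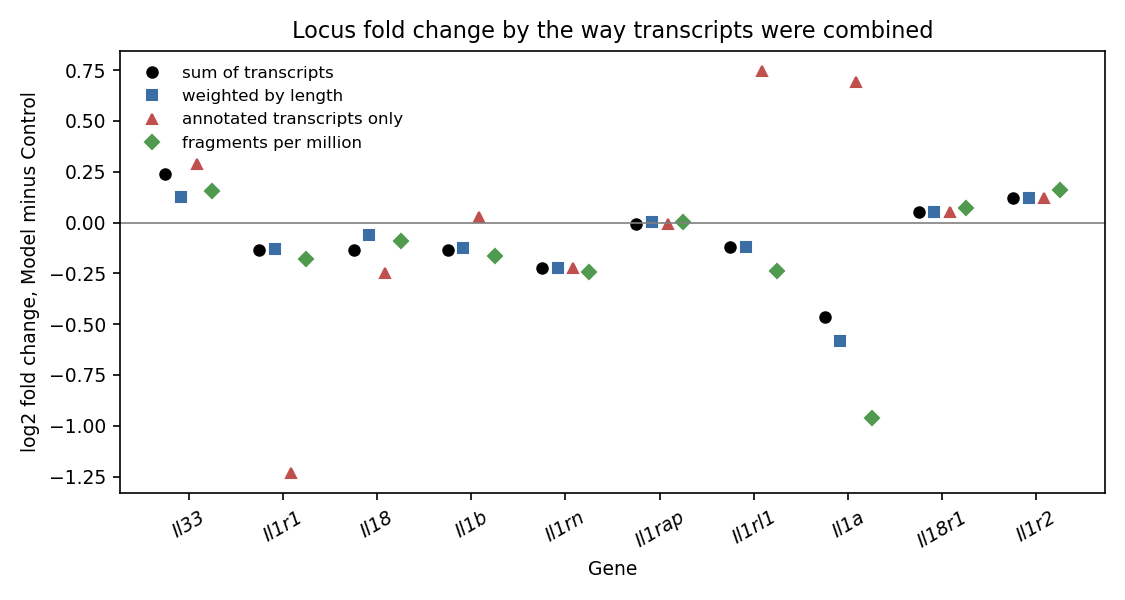
Locus log2 fold change (model minus control, on the log2(value + 1) scale) of each gene when transcripts were summed, weighted by length, limited to annotated ones or taken as fragments scaled to the library total. The 4 markers nearly coincide for Il1rn, Il1rap, Il18r1 and Il1r2, whereas for Il1a they run from -0.96 to 0.69 and for Il1r1 the annotated transcripts alone give -1.23.

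For context, 5 lists of other genes of the pathway were read the same way, each at the locus level. None of the 57 genes tested out of 68 listed was called. Of 11 further family members, 6 were tested, with 3 positive and 3 negative fold changes. Sigirr, an inhibitory receptor of the family, was the highest (5.65 to 7.31 FPKM over the 6 lungs), followed by the IL-18 receptor accessory chain Il18rap (0.696 to 1.87 FPKM) and the IL-36 receptor Il1rl2 (0.775 to 1.36 FPKM). Il36a, Il1f10 and Il1rapl2 were above 0 in 2 lungs or fewer, and Il36g and Il1rapl1 were not analysed here.

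Of 13 genes of the inflammasome and of precursor processing, 12 were tested, 10 with negative and 2 with positive fold changes (median -0.12, beside -0.0020 over all genes). The sensor Nlrp3, named after its values were seen, was at 2.49, 3.20 and 3.05 FPKM in control and 1.48, 2.12 and 2.21 FPKM in model lungs. Its groups did not overlap, but its fold change was too small for a call (log2 fold change -0.42, unadjusted p = 0.0310, adjusted p = 0.957 in limma with Benjamini-Hochberg adjustment). The 3 most abundant were the protease Capn1 (10.3 to 14.0 FPKM), the ATP-gated channel P2rx7 (9.56 to 13.0 FPKM) and the protease Casp1, which cleaves the IL-1β and IL-18 precursors. Casp1 was at 5.47, 7.44 and 8.90 FPKM in control and 5.35, 7.25 and 3.56 FPKM in model lungs. Casp1 was highest in control 3 and lowest in model 3, as its substrates Il1b and Il18 were.

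All 21 signal transducers were tested, with 10 positive and 11 negative fold changes. The adaptor kinase Irak2, named after its values were seen, was at 7.98, 7.65 and 9.54 FPKM in control and 6.60, 7.02 and 6.89 FPKM in model lungs, with no overlap (log2 fold change -0.26, unadjusted p = 0.0448, adjusted p = 0.957 in limma with Benjamini-Hochberg adjustment). In 5 of the 21 the groups did not overlap (10.2% of all genes), with Ikbkb, Tab1 and Ikbkg higher and Irak2 and Irak1 lower in the model. The most abundant were the inhibitor Nfkbia (16.4 to 30.4 FPKM) and the NF-kB subunits Nfkb1 (17.0 to 21.3 FPKM) and Rela (15.1 to 17.5 FPKM), none of which was called.

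Genes that IL-1 is known to induce did not pass the test either. Of 15, 12 were tested, 10 with negative and 2 with positive fold changes (median -0.23). The adhesion molecule Icam1 (58.2 to 81.1 FPKM) and the siderophore binder Lcn2 (35.6 to 62.0 FPKM) were the most abundant and the 2 with positive values, and the chemokine Cxcl1 was at 9.97, 18.7 and 19.9 FPKM in control and 13.8, 16.0 and 4.49 FPKM in model lungs. Cxcl1 was again highest in control 3 and lowest in model 3. Il6 was above 0 in model 1 alone, and Mmp3 and Saa2 were not analysed here. Of 8 genes tied to IL-33 and IL-18, 6 were tested, 5 with positive fold changes (median 0.14), and the most abundant were the growth factor Areg (0.451 to 1.74 FPKM), the granule protease Gzmb (0 to 2.16 FPKM) and the chemokine Ccl17 (0 to 1.83 FPKM). Il5 was not analysed here.

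Markers of the cell types in lung were read beside these values. None of the marker entries tested was called. Summed FPKM of 5 type 2 epithelial markers was 4234 to 5917 in control and 4989 to 6549 in model lungs, and that of 5 type 1 markers 509 to 677 and 604 to 721. The 5 fibroblast markers summed to 288 to 307 in control and 313 to 406 in model lungs and did not overlap. The largest part of this sum was Col3a1, at 174, 177.9 and 153.6 FPKM in control and 188.5, 203.8 and 232.5 FPKM in model lungs. Of the 5 markers, Col3a1 alone had an unadjusted p under the threshold (unadjusted p = 0.0476, adjusted p = 0.957 in limma with Benjamini-Hochberg adjustment). Col1a1 and Col1a2 were positive with overlapping groups, and the fold changes of Pdgfra and Dcn were negative. The other sums overlapped: 4 macrophage markers 41.7 to 63.8 against 41.2 to 66.9, 4 neutrophil markers 10.1 to 14.5 against 9.71 to 11.7, 5 mast cell markers 26.4 to 30.1 against 29.6 to 34.9, 5 T and NK cell markers 13.6 to 20.3 against 13.5 to 17.9, 4 type 2 lymphoid markers 11.8 to 14.3 against 12.1 to 15.3, 4 B cell markers 7.21 to 11.9 against 8.68 to 13.8, 3 endothelial markers 156 to 279 against 220 to 252, and 4 basal epithelial markers at most 0.817 against at most 2.92. Of the mast cell sum, nearly all was Kit, at 27.5, 25.4 and 22.8 FPKM in control and 27.8, 31.5 and 27.6 FPKM in model lungs, while the fold changes of Ms4a2, Tpsab1, Cpa3 and Hdc were negative. Cd68, a macrophage marker, was at 1.30 FPKM in control 3 and 1.21 FPKM in model 2 and at 20.7 to 22.8 FPKM in the other 4 lungs. No marker read was at 0 in all 6 lungs, and Pecam1, Cldn5, Marco, Mpo, Il7r, Cd79a and Trp63 were not analysed here. Their part in the results was not tested.

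Model 3, the lung lowest in Il1a, Il1b and Il18, was also the highest in each of the 5 cardiac muscle markers. Myh6, a cardiac myosin heavy chain, was at 5.11 FPKM there and at no more than 0.0339 FPKM in the other 5 lungs, and the 5 cardiac markers summed to at most 11.3 FPKM in control lungs and to 25.8 FPKM in the highest model lung. Other cardiac markers were present in all lungs. Actc1 was at 13.8 FPKM in model 3 and 5.18 to 9.78 FPKM in the other 5, and Tnni3 at 2.27 FPKM in model 3 and 1.96 FPKM in control 3. The part of cardiac muscle RNA in the values of model 3 was not tested. Without model 3 the log2 fold change was -0.26 for Il1a, 0.19 for Il1b and 0.014 for Il18.

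Across the 6 lungs, the genes whose locus FPKM ran most like that of Il1a were Dld, Rsbn1 and the RF00562 gene (Pearson r = 0.995, 0.993 and 0.990 on log2(FPKM + 1), out of 13752 genes compared). Il1rl1 was most like Faap20, Fam210a and RF00560 (r = 0.986, 0.986 and 0.984). With 6 points that share 2 conditions and the same libraries, 344 genes exceeded 0.9 for Il1a and 77 for Il1rl1, and these correlations are descriptions.

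Of the 5216 circular RNAs counted by back-splice reads, 2 came from a member, Il18r1: circRNA3432 (chr9:47190987-47200593) and ciRNA265 (chr9:47194046-47197874). Each was supported by 1 read, both in model 1, and was at 0 in the other 5 lungs, among 2037 to 2964 back-splice reads per library. At this depth a difference between groups was not detectable. No circular RNA of the other 9 genes was listed.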

How the data were processed

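Lung RNA of 3 control and 3 PF model rats was analysed, with groups taken from the titles of the samples. Replicates were separate rats. The authors used Cutadapt for trimming and Bowtie2 with Tophat2 for mapping (the submitters' processing notes name HISAT2, StringTie and TopHat), and StringTie assemblies were merged over all samples. The authors deposited FPKM per transcript, estimated with StringTie and Ballgown. The authors also deposited per-base coverage, a signal not normalized for library size, and for circRNAs raw counts of back-splice reads from CIRCexplorer. The 6 scaled circRNA columns were not used. The genome build is not given in the sources used here. Transcript starts and ends from assembly depend on coverage, and the FPKM of isoforms that share exons comes from a division of reads between them, so isoform values of a locus are not independent.

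Coverage worth 1 FPKM was 6.39 to 7.33 per library, and 63152 to 63479 transcripts were above 0. Library totals were not in the tables. Reads were estimated as coverage times length over 150 bases. Members and gene lists were chosen with earlier results of these data known. Features above 0 in at least 3 of 6 samples were tested with limma 3.58.1 (trend, R 4.3.3) on log2(FPKM + 1), with Benjamini-Hochberg adjustment over all features tested. Gene FPKM was the sum over transcripts that share a locus and a gene name, restricted to genes with an annotated transcript. Features were named by a rule: all members, their annotated transcripts, their assembled isoforms with a mean of at least 0.5 FPKM or called, the 3 most abundant genes of each pathway list, and the 3 genes most like Il1a and Il1rl1. Ratios had 0.01 FPKM added to each side. The scripts were tested on simulated annotated transcripts, of which 200 of 24857 were changed by 2 on the log2 scale. The 200 were drawn from transcripts with a mean above 1 on the log2(FPKM + 1) scale, so recovery of lower transcripts was not tested. Of the 200, 189 were recovered, and 917 unchanged transcripts were also called, beside 816 called in the measured data. In the measured data, limma's unadjusted p was at most 0.05 for 936 of 20421 genes, 1137 of 25073 annotated and 1872 of 39794 assembled transcripts. A call by this rule alone is therefore weak evidence of a change. Promoter windows are from RefSeq (GRCr8). Figures were drawn with matplotlib 3.10.9. Alternatives covered the pseudocount, filters, scaling, the test, a replicate block, leaving out each library and the way transcripts are combined.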

Additional observations from a re-analysis of the deposited data

How the results depend on the processing

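Without the block, the 3 member counts called were 0 genes, 3 annotated and 1 assembled transcripts. Pairing samples of equal replicate number was checked through the deviations from the group means (r = 0.058, 0.102 and -0.019). For unequal numbers r ran from -0.100 to 0.042. The values 0.102 and 0.058 were the highest, but all were small, so this check did not settle whether samples were paired. With the replicate number as a block, 0 genes, 3 annotated and 2 assembled member transcripts were called, the added one being MSTRG.36817.2 (log2 fold change -0.82), and the block changed no other call among the members. Over all features, the block called 1.8% of genes, 3.2% of annotated and 3.0% of assembled transcripts.

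One gene was called with length weighting (Il1a), over annotated transcripts alone (Il1rl1) and by fragments scaled to the library total (Il1a), an alternative chosen after seeing the data. Of all genes, 1.7%, 2.9% and 1.6% were called in these ways, respectively. Leaving out 1 library gave 0 to 1 genes called and 1 to 4 assembled transcripts called: 2 without control 1 or model 1, and 4 without model 2 or model 3. Leaving out 1 library gave 2 to 3 annotated transcripts. Over all features, these runs called 1.9% to 2.3% of genes, 3.5% to 3.9% of annotated and 3.1% to 4.0% of assembled transcripts. Annotated calls fell to 0 with a mean FPKM of at least 1, since none of the 3 averaged that much, and to 1 in an F test with a library size covariate, where ENSRNOT00000006113 and ENSRNOT00000020108 were lost and the cause was not tested. Of all annotated transcripts tested, 2.0% and 1.9% were called in these settings. The log2 ratio of Il1rn to agonists was -0.66 over annotated transcripts alone and ran from -0.34 to 0.40 with 1 library left out. That of Il1r2 to Il1r1 was 2.77 over annotated transcripts alone, 0.69 with 0.1 FPKM added to each side, and ran from 0.64 to 1.62 with 1 library left out.

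Log2 fold changes that turned sign were these. Over annotated transcripts alone, Il1a (0.69), Il1b (0.027) and Il1rl1 (0.75) did so. In the F test with a library size covariate, Il1b (0.049), Il18r1 (-0.084), Il1rap (0.0092), ENSRNOT00000020194 (-0.18), ENSRNOT00000082408 (0.020), ENSRNOT00000087112 (0.00048), MSTRG.23934.2 (0.56), MSTRG.23935.1 (0.21), MSTRG.34720.1 (-0.39), MSTRG.34720.2 (0.11), MSTRG.36803.1 (0.23), MSTRG.36805.8 (0.038), MSTRG.3968.2 (-0.034) and MSTRG.3968.7 (-0.72) did so. After scaling to TPM, Il1rap (0.069), ENSRNOT00000002645 (0.033), MSTRG.36806.1 (0.041) and MSTRG.36807.1 (0.040) did so. With length weighting, Il1rap (0.0037) did so. By fragments scaled to the library total, Il1rap (0.0043) did so. With a pseudocount of 0.1, ENSRNOT00000006126 (-0.24) did so. In an F test on untransformed FPKM, MSTRG.36803.1 (0.036) did so. After median-of-ratios scaling, MSTRG.36806.1 (0.031) and MSTRG.36807.1 (0.024) did so. With 1 library left out, these ranges spanned 0: Il1b -0.37 to 0.19, Il18 -0.24 to 0.014, Il1rl1 -0.25 to 0.14, Il18r1 -0.041 to 0.18, Il33 -0.049 to 0.48, Il1rap -0.079 to 0.033, ENSRNOT00000002645 -0.14 to 0.050, ENSRNOT00000006126 -0.23 to 0.70, ENSRNOT00000006308 -0.17 to 0.24, ENSRNOT00000013093 -0.52 to 0.011, ENSRNOT00000019673 -0.13 to 0.22, ENSRNOT00000020194 -0.041 to 0.18, ENSRNOT00000022056 -0.15 to 0.55, ENSRNOT00000043498 -0.13 to 0.22, ENSRNOT00000082408 -0.062 to 0.023, ENSRNOT00000087112 -0.0052 to 0.0022, MSTRG.23934.2 -0.59 to 0.033, MSTRG.34719.3 -0.36 to 0.055, MSTRG.34720.4 -0.15 to 0.14, MSTRG.36803.1 -0.64 to 0.12, MSTRG.36805.3 -0.76 to 0.018, MSTRG.36805.8 -0.14 to 0.039, MSTRG.36806.1 -0.15 to 0.057, MSTRG.36807.1 -0.18 to 0.082, MSTRG.36808.1 -0.16 to 1.04, MSTRG.36817.3 -0.94 to 0.070, MSTRG.3968.4 -0.69 to 0.094 and MSTRG.3968.7 -0.32 to 0.33. None of these was called with all 6 libraries and summed transcripts. TPM moved the median of all genes to 0.053, under 0.1 on the log2 scale. Of the genes called after TPM scaling 220 of 396 were higher in the model, against 155 of 354 as deposited, and of the assembled transcripts 542 of 1136 against 441 of 1184.

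Of the recomputed fold changes, ratios and counts, 654 kept their direction and call (for counts, stayed within 1.5 times), 80 turned sign, 14 gained a call, 7 lost one and 11 counts moved by more. Depth limits Il1r2 and the circRNAs, and with 3 rats a group the fold changes of low isoforms rest on few reads.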
